A study of Mus musculus with 12 samples.

Results

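The 34 genes described here make cholesterol and fatty acids or control their making. They were chosen by name, and each had to be present in the tables of both days, which was the case for 34 of 34 listed genes out of 14986 genes that the tables share. By role they are 18 enzymes that carry acetyl-CoA to cholesterol, 6 genes that regulate or carry sterols, and 10 genes that make, desaturate or elongate fatty acids or supply acetyl-CoA and NADPH for it. The values come from RNA-seq of dermal papilla (DP) cells, the mesenchymal cells at the base of the hair follicle, from 3 control and 3 dMF1/2 mice at P14 and as many at P16, 12 libraries in all, each labelled as anagen, the growth phase of the hair cycle.

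The dMF1/2 mice were Cor-cre/+; Fgfr1Flox/Flox; Fgfr2Flox/Flox, so both copies of both receptor genes were floxed, for deletion in cells with Cre. The labels call the controls wild type. The methods list 2 control genotypes for this cross, Cor-cre/+; Fgfr1Flox/+; Fgfr2Flox/+ and Cre-negative mice with both genes floxed. Every mouse carried a ROSA26 YFP reporter that needs Cre, and cells were sorted by FACS on YFP after dissociation of whole skin, which only the first of these control genotypes allows. Those controls would carry Cre and 1 floxed copy of each receptor, like the mutants in all but the second copies. Cor-cre is driven by the Corin locus, a DP gene in skin. Each library came from 1 mouse, so p-values measure the spread between mice together with that of preparation.

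Cells make cholesterol from acetyl-CoA through mevalonate, squalene and lanosterol, and fatty acids from the same acetyl-CoA through malonyl-CoA. The transcription factors SREBP-1 and SREBP-2 drive both pathways. SCAP escorts them from the endoplasmic reticulum when sterols are low, and INSIG proteins hold SCAP back when sterols are high. In skin these pathways are best known from sebocytes, adipocytes and the epidermal barrier, and NF-Y, which binds CCAAT, is a known partner of SREBPs at the promoters of many of these genes.

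The upstream sequences of 5 members are shown as examples from the sterol enzymes, fatty acid synthase and the member that differed most between genotypes. Each run is the 250 bases before a RefSeq transcription start in GRCm38.p6, 5′ to 3′ on the gene's strand, with capitals marking a match, on either strand, to the sterol regulatory element TCACNCCAC or to the NF-Y box CCAAT, whose matches on the other strand appear as its reverse complement.
Hmgcs1 (chr13:119690101-119690350, plus strand): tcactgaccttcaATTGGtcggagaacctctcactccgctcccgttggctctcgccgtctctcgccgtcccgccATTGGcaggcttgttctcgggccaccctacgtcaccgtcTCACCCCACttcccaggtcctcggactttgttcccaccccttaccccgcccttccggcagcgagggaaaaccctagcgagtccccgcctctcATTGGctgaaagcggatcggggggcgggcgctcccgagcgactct
Mvd (chr8:122443423-122443672, minus strand): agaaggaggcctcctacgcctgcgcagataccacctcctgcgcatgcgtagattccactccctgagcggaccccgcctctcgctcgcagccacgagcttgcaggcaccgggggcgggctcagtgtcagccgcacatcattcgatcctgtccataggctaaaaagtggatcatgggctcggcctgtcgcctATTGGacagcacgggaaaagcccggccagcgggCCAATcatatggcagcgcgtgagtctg
Tm7sf2 (chr19:6067851-6068100, minus strand): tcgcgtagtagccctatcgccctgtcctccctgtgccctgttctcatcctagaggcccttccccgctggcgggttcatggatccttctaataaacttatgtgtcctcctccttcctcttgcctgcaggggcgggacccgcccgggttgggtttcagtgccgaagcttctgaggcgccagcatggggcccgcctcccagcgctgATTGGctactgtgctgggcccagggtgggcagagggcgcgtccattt
Fasn (chr11:120824548-120824797, minus strand): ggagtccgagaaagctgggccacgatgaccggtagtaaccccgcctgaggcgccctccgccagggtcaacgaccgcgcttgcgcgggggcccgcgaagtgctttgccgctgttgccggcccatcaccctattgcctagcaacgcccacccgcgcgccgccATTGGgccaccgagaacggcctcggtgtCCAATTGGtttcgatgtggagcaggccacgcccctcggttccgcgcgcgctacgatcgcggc
Elovl6 (chr3:129532136-129532385, plus strand): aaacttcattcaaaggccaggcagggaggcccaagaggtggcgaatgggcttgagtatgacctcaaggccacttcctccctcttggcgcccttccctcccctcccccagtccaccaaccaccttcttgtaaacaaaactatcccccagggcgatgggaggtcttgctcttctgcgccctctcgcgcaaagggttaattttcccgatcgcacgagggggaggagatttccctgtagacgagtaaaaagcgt
Of the members, 28 had promoters in the RefSeq table, with 37 starts among them. A CCAAT match stood before at least 1 start of 22 of the 28 genes (78.6%), against 39.8% of the 11629 genes of the tables that had a promoter there and 37.5% of all 27025 genes. Counted by start, where genes with several starts weigh more, it stood in 23 of 37 member promoters (62.2%) and in 33.8% of all 32851 promoters. The genes without a match were Acaca, Acat2, Acly, Elovl6, Lpin1 and Scap. The sterol regulatory element as spelled was rare, in Hmgcs1 alone among the members (3.57% of 28 genes, against 1.22% of all genes). In Fasn, matches on opposite strands overlapped. The 2 motifs do not overlap each other in the sequences above. Insig2 held its 3 CCAAT matches before the farthest upstream of 3 listed starts, with none before the other two.

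The libraries held 19302358 to 29860750 reads on protein-coding genes. In both P14 replicate 1 libraries, of control and of dMF1/2 mice, the 3 most abundant genes took 17.7% and 21.0% of reads, against 27.2% to 36.1% in the other libraries, and the main comparisons that use P14 were repeated without that pair. The pair also differed from the other P14 libraries in marker reads, given as CPM, a count scaled to the library total. It had 8336 and 8305 CPM over the DP list against 3837 to 5178. Over the sebocyte list it had 142 and 126 against 76.1 to 86.8. Over the keratinocyte list it had 50.4 and 43.1 against 15.0 to 25.3. The endothelial list was higher too (73.8 and 56.8 against 37.4 to 43.6), as were the adipocyte and melanocyte lists. The immune list was lower, with 3.42 and 5.01 against 8.25 to 12.9. The targeted gene Fgfr1 had 9981, 7745 and 8929 normalized reads in control and 7405, 6391 and 6398 in dMF1/2 libraries at P14, and 12517, 8512 and 9940 against 8015, 6226 and 7552 at P16. Fgfr2 overlapped between genotypes on both days, with 3669 to 5190 normalized reads at P14 and 4113 to 5575 at P16. Reads were counted over whole genes and not by exon, so these values do not check the deletion of the floxed exons. All 14 genes of the DP marker list were present and summed to 1536 to 8336 CPM, with P16 control replicate 1 the lowest library. It also had the fewest Corin reads, 2776 normalized reads against 12352 and 7518 in the other P16 controls.

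The 2 desaturase genes were the most abundant members, while the fatty acid group as a whole reached down to Lpin1 and Acss2, at 29.4 and 26.2 normalized reads per kb of exon. Scd2 and Scd1, which encode stearoyl-CoA desaturases that put the double bond into oleate and palmitoleate, led on a per-length scale, with 1788 ± 347 and 1257 ± 323 reads per kb (SD over the 12 libraries, rescaled together). Srebf1, which encodes SREBP-1, had 524 ± 62.4 reads per kb, and Fasn, the fatty acid synthase, 518 ± 53.6. Elovl5, which elongates polyunsaturated fatty acids, and Acly, which makes cytosolic acetyl-CoA from citrate, followed at 394 ± 34.9 and 338 ± 21.8. The neighbours from Srebf1 to Acly overlapped in their ranges pair by pair. The most abundant sterol enzyme gene was Hmgcs1, HMG-CoA synthase, at 266 ± 33.8 reads per kb, close to Insig2, Srebf2 and Scap. Apart from Fdps, the other sterol enzymes lay between 15.0 reads per kb for Tm7sf2, a sterol C14 reductase, and 197 for Ebp, a sterol isomerase. Fdps, farnesyl diphosphate synthase, was lowest at 6.60 ± 2.41 reads per kb, and a second coding gene model, Gm43738, overlaps it, so that reads may have been left uncounted.

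**Figure D1:**
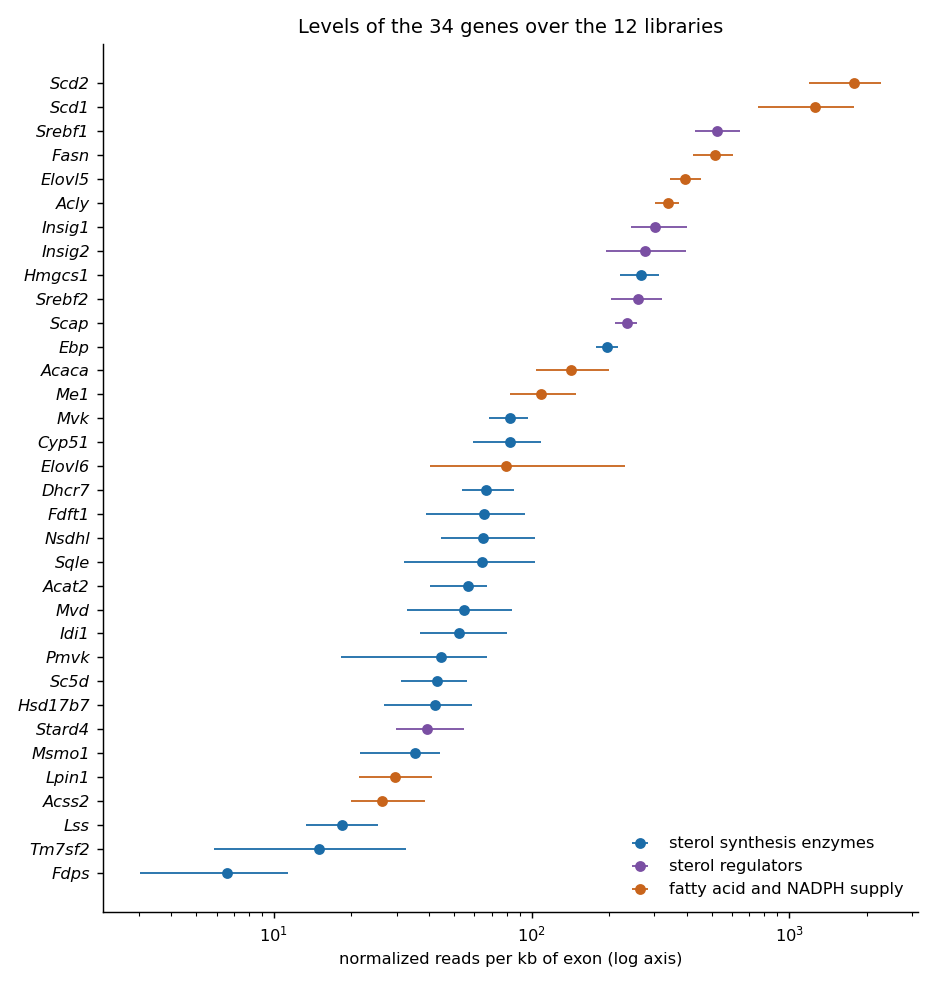
Mean level of each of the 34 genes over the 12 libraries, in normalized reads per kb of exon on a log axis, with bars from the lowest to the highest library and colours for the 3 roles. Scd2 and Scd1 sit at 1788 and 1257, Fdps at 6.60, and Elovl6 and Tm7sf2 have wide bars.

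Some members share sequence with other genes, and what that did to their counts was not tested. The longest transcript of Acaca, acetyl-CoA carboxylase 1, shared 50.2% of its 61-base windows exactly with another gene, the model Gm5182, and Acat2, a cytosolic acetoacetyl-CoA thiolase, shared 43.6% with Acat3 and Tcp1. The share was 29.9% for Idi1, 28.0% for Fdft1 and 28.0% for Me1. For Scd1 it was 3.71%, for Scd2 2.65% and for Elovl6 3.48%. Insig2, Lpin1, Pmvk, Mvd and Tm7sf2 shared no window, although the gene models Gm20388 and Vps51 overlap Mvd and Tm7sf2.

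At P14, no member passed limma's test between genotypes. Of all 13334 genes tested, 7 passed (0.0525%). The median log2 fold change of the members, dMF1/2 over control, was 0.04, beside 0.00 for all genes, and 20 of 34 were above 0, where 51.3% of all genes were. One member had an unadjusted p under 0.05, and DESeq2, edgeR and limma with the replicate number as a block called 0 members as well, although the block called 1.68% of all genes. Without the P14 replicate 1 pair the count was also 0, with a median of 0.04. The member with the smallest p was Sc5d, the lathosterol oxidase that acts late in cholesterol synthesis, with 149, 207 and 160 normalized reads in control and 229, 235 and 270 in dMF1/2 libraries. Its log2 fold change of 0.52, with a standard error (SE) of 0.16, had an adjusted p of 0.457 by limma. Sc5d was the only member whose P14 groups did not overlap (exact permutation test, two-sided, p = 0.1, the smallest that 3 against 3 allows), where 12.7% of all genes tested had groups apart.

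The other members with the largest P14 differences did not separate the genotypes. Acat2 had 168, 110 and 120 normalized reads in control and 169, 152 and 143 in dMF1/2 libraries. Me1, malic enzyme 1, which yields NADPH, had 433, 445 and 313 against 506, 458 and 425. Srebf1 had 3572, 2811 and 2918 against 2928, 2402 and 2588. In each of these the groups overlapped, and the log2 fold changes were 0.24, 0.24 and -0.23. Elovl6, which elongates palmitate to stearate, had 307, 365 and 604 normalized reads in control and 256, 262 and 308 in dMF1/2 libraries, a log2 fold change of -0.57 (adjusted p = 0.685, limma).

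**Figure D2:**
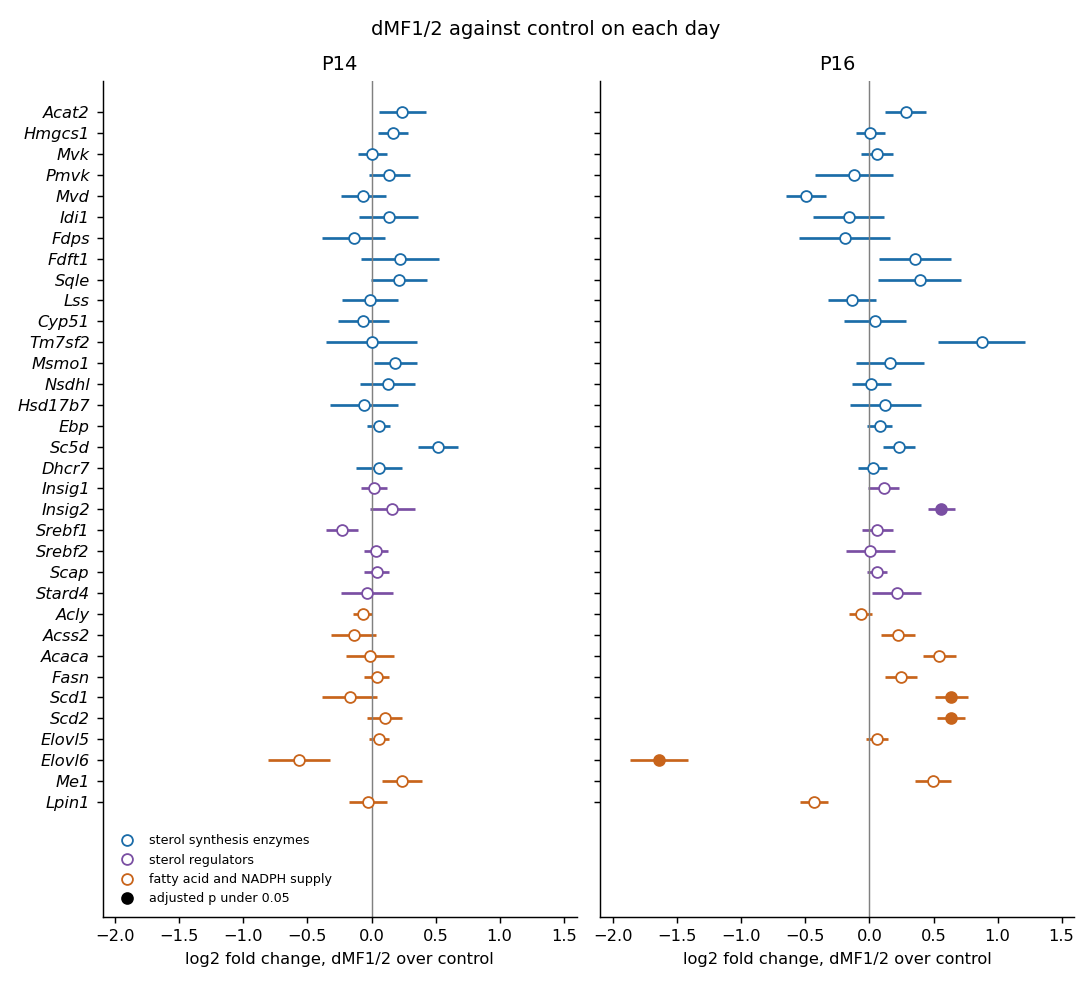
Log2 fold change of dMF1/2 over control for each of the 34 genes at P14 and at P16, with bars for 1 standard error of limma's fit and filled points for genes with an adjusted p under 0.05. No point is filled at P14, and 4 are filled at P16, with Scd1, Scd2 and Insig2 to the right of 0 and Elovl6 to the left.

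At P16, the 2 stearoyl-CoA desaturase genes and Insig2 were higher in dMF1/2 mice, and Elovl6 was lower. These 4 of 34 members passed the test (11.8%), against 4.32% of 13457 genes. By direction, 3 members were higher and 1 lower, against 2.18% and 2.14% of all genes. The median log2 fold change of the members was 0.07, beside 0.00 for all genes, and 26 of 34 members were above 0, where 49.2% of all genes were. None of the 18 sterol enzymes passed. The groups did not overlap for 6 members that were higher and 3 that were lower, which is close to the 24.5% of all genes tested whose groups were apart.

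Scd1 (ENSMUSG00000037071, chromosome 19 of GRCm38, 44394451 to 44407709, minus strand) had 3747, 4804 and 4417 normalized reads in control and 6559, 5949 and 7675 in dMF1/2 libraries at P16. Every mutant library was above every control library. The log2 fold change was 0.64 ± 0.13 (SE; adjusted p = 0.0337, limma). Its neighbour Scd2 (ENSMUSG00000025203, 44293676 to 44306864, plus strand) had 6620, 7181 and 7724 in control and 10865, 10234 and 12439 in dMF1/2 libraries. Again the groups did not overlap, and the log2 fold change was 0.64 (standard error 0.11, adjusted p = 0.0190 by limma). At P14 both genes overlapped between genotypes, with 8601, 6426 and 6381 normalized reads of Scd1 in control and 8490, 5056 and 5747 in dMF1/2 libraries. For Scd2 they were 10496, 10784 and 8767 against 12277, 9804 and 10225.

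Insig2 (ENSMUSG00000003721, chromosome 1, 121304353 to 121332589, minus strand), one of the proteins that retain SCAP, had 684, 807 and 734 normalized reads in control and 1063, 1002 and 1225 in dMF1/2 libraries at P16. The groups stood apart, with a log2 fold change of 0.56 ± 0.11 (SE; adjusted p = 0.0273, limma). At P14 Insig2 had 1017, 954 and 829 normalized reads in control and 1359, 952 and 873 in dMF1/2 libraries, which overlapped. The other 5 regulators differed less at P16, with log2 fold changes of 0.01 for Srebf2, which encodes SREBP-2, 0.06 for Srebf1, 0.06 for Scap, 0.11 for Insig1 and 0.21 for Stard4, a sterol transfer protein. None of these 5 passed the test. In a fit over all 12 libraries, Insig2 and Scd1 lost their P16 calls (adjusted p = 0.0669 and 0.0921, limma). Scd2 and Elovl6 were the 2 members called there, where 4.44% of all genes were.

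Elovl6 (ENSMUSG00000041220, chromosome 3, 129532355 to 129638495, plus strand) had 1509, 801 and 812 normalized reads in control and 320, 330 and 304 in dMF1/2 libraries at P16. Control replicate 1 was far above the other controls, and all 3 controls were above all mutants. Their means, 1040 ± 406 and 318 ± 13.4 (SD, n = 3), gave a log2 fold change of -1.64 ± 0.23 (SE; adjusted p = 0.00978, limma). Without control replicate 1 the log2 fold change was -1.34 and Elovl6 kept its call.

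**Figure D3:**
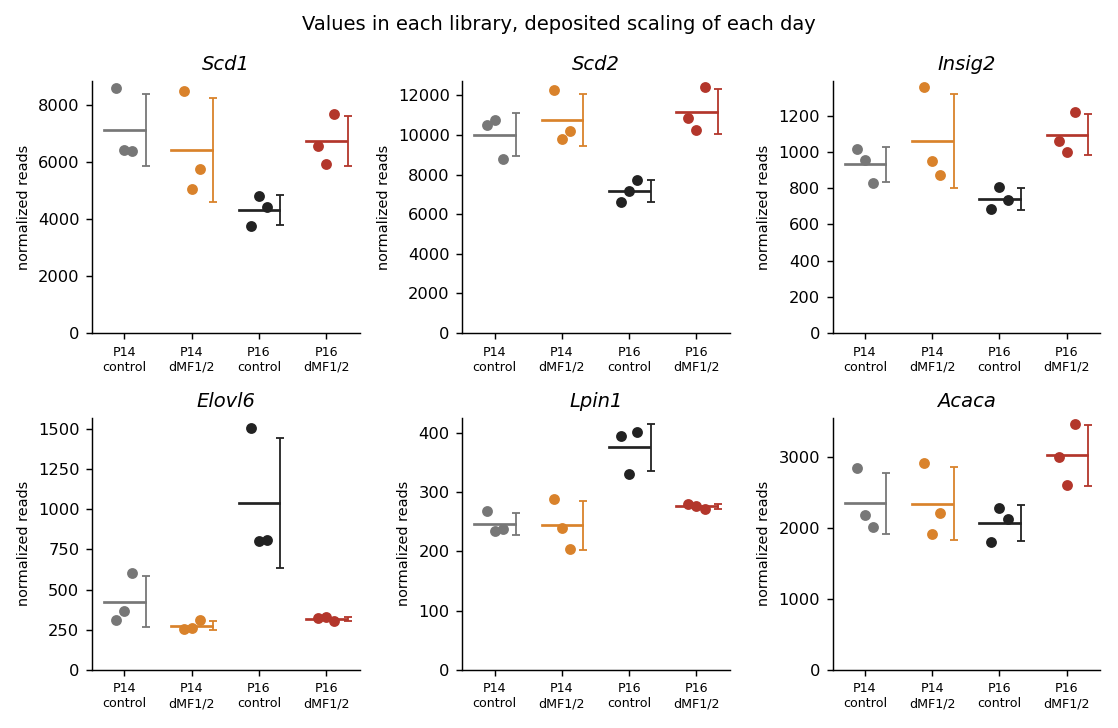
Normalized reads in each library for Scd1, Scd2, Insig2, Elovl6, Lpin1 and Acaca, as points, with group means as lines and bars of 1 SD (n = 3), in the deposited scaling of each day. At P16 the dMF1/2 points of Scd1, Scd2, Insig2 and Acaca lie above the control points and those of Elovl6 and Lpin1 lie below.

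With the replicate number as a block, 7 members were called at P16, where 10.4% of all genes were. DESeq2 called the same 7, where 8.33% of all genes were. DESeq2 with the block called 6, 5 higher and 1 lower (8.95% of all genes), and edgeR called 4 (4.48%). The 3 genes that the block and DESeq2 each added were Acaca, Me1 and Lpin1. Acaca makes malonyl-CoA, the building block of fatty acids, and had 1796, 2284 and 2122 normalized reads in control and 2996, 2609 and 3468 in dMF1/2 libraries at P16. Its log2 fold change was 0.55, with an adjusted p of 0.0579 by limma, 0.0313 with the block and 0.00545 by DESeq2. Me1 had 333, 347 and 338 against 401, 472 and 581, a log2 fold change of 0.50 (adjusted p = 0.0914 by limma and 0.0423 with the block). Lpin1, a phosphatidate phosphatase of glycerolipid synthesis, had 395, 330 and 402 against 280, 276 and 272, a log2 fold change of -0.44 (adjusted p = 0.0668 by limma and 0.0406 with the block). In all 3 the groups did not overlap.

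The calls at P16 rest on few libraries. With 1 library left out, 0 to 5 members were called, where 1.11% to 5.08% of all genes were. Without control replicate 1, the library with the fewest Corin reads, the called members were Elovl6 and Sqle, while the log2 fold changes of Scd1, Scd2 and Insig2 were 0.54, 0.58 and 0.51 with adjusted p of 0.0754, 0.05002 and 0.0706 by limma. Sqle, squalene epoxidase, had 452, 180 and 194 normalized reads in control and 296, 307 and 394 in dMF1/2 libraries, so its log2 fold change of 0.39 (adjusted p = 0.597, limma) went to 0.81 (adjusted p = 0.0368, limma) without that library. Without control replicate 3 or dMF1/2 replicate 1 only Elovl6 was called, and without dMF1/2 replicate 3 no member was, with Elovl6 at an adjusted p of 0.0509 by limma.

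The remaining genes of the fatty acid group differed less at P16. Fasn had 4725 to 5809 normalized reads in control and 5296 to 6780 in dMF1/2 libraries, a log2 fold change of 0.25 (adjusted p = 0.350, limma). Acly, Elovl5 and Acss2, which makes acetyl-CoA from acetate, had log2 fold changes of -0.07, 0.06 and 0.22, and none of them passed. Among the sterol enzymes the log2 fold changes ran from -0.50 for Mvd, mevalonate diphosphate decarboxylase, to 0.87 for Tm7sf2, with a median of 0.05. Tm7sf2 had 26.2, 41.5 and 29.4 normalized reads in control and 36.7, 64.4 and 86.8 in dMF1/2 libraries, which overlapped (adjusted p = 0.206, limma). Mvd had 82.1, 91.3 and 102 against 62.7, 66.3 and 64.6, with every mutant below every control (adjusted p = 0.123, limma).

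Some markers of the sorted cells moved with genotype at P16 too, as did 1 adipocyte marker. Summed over 14 DP markers, control libraries had 1536 to 3315 CPM and dMF1/2 libraries 3867 to 6266, and 5 of the 14 were called higher (Alpl, Fgf10, Nog, Prom1 and Rspo3) and 1 lower (Crabp1). Of the sebocyte list, 8 of 10 genes were in the P16 table, with 77.6 to 109 CPM in control and 117 to 121 in dMF1/2 libraries. The defining sebocyte genes Awat1 and Dgat2l6 were absent from both tables, and no sebocyte gene was called. Of the 4 sebocyte genes tested, 3 were above 0 (median log2 fold change 0.18) and 3 had an unadjusted p under 0.05. Of the adipocyte list, 7 of 10 genes were in the table, with 228 to 300 CPM in control and 229 to 332 in dMF1/2 libraries, and Adipoq, Cidec and Lep were absent from both tables. Plin1, which coats lipid droplets, was called, with 41.0, 87.1 and 59.8 normalized reads in control and 253, 370 and 369 in dMF1/2 libraries (log2 fold change 2.43, adjusted p = 0.00604, limma). It was the only one of the 5 adipocyte genes tested that was above 0, and the median of the 5 was -0.19. Keratinocyte markers summed to 11.5 to 39.2 and 27.0 to 33.7 CPM, with 11 of 14 in the table and 0 called, and 7 of the 8 tested were above 0, with a median log2 fold change of 0.68. Melanocyte, endothelial and immune lists stayed at or below 53.4 CPM in each P16 library, with 0 genes called, and 5 of the 6 endothelial genes were below 0 (median -0.73). The part of these cells in the members' differences was not tested. In such bulk samples, fewer cells of a type and less RNA per cell cannot be told apart.

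Between P14 and P16, the desaturase genes Scd1 and Scd2 and the sterol enzyme genes Pmvk, Mvd and Tm7sf2 fell in control mice, and Elovl6 and Lpin1 rose. In control mice, 7 of 34 members passed (20.6%), against 14.5% of 13415 genes. Of these, 2 rose (6.26% of all genes) and 5 fell (8.28%). The median log2 fold change of the members, P16 over P14, was -0.24, beside 0.01 for all genes, and 9 of 34 were above 0, where 51.8% of all genes were. In dMF1/2 mice, 2 members passed (5.88%), against 5.80% of all genes, which is near the background. By direction, 0 rose (1.83% of all genes) and 2 fell (3.97%), and the median was -0.09, beside 0.01. Markers moved between the days in control mice as well. Of the 14 DP markers 8 fell and none rose in control mice, against 0 called in dMF1/2 mice, and their sum went from 4188 to 8336 CPM at P14 to 1536 to 3315 CPM at P16 in control and from 3837 to 8305 CPM to 3867 to 6266 CPM in dMF1/2 libraries. Plin1 fell in control mice by 2.37 on the log2 scale (adjusted p = 0.00558, limma), while 3 of the 5 adipocyte genes tested were above 0, with a median of 0.27. Of the endothelial list Emcn rose and Tek fell, with 4 of 6 genes above 0 and a median of 1.08. Emcn was a low gene, with means of 3.33 normalized reads in P14 control and 25.0 in P16 control, the first under the filter's 10. Of the 9 keratinocyte genes tested 7 were below 0, with a median of -0.53. Without the P14 replicate 1 pair, 6 of the DP markers fell in control mice and 1, Sox18, in dMF1/2 mice, Plin1 and Emcn were still called, Tek was not, and the sebocyte list's Krt79 fell. With all libraries, no keratinocyte, sebocyte, melanocyte or immune marker passed in either genotype, and the part of these markers' cells in the members' changes was not tested. The P16 control libraries enter both the genotype comparison at P16 and the control change, so these values share them.

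On the scale of the 12 libraries rescaled together, Scd1 had 8711, 6518 and 6465 normalized reads at P14 and 3693, 4724 and 4362 at P16, a log2 fold change of -0.76 (adjusted p = 0.0255, limma). Scd2 had 10630, 10938 and 8882 at P14 and 6524, 7061 and 7629 at P16, a log2 fold change of -0.52 (adjusted p = 0.0205 by limma). Elovl6 had 311, 370 and 612 at P14 and 1487, 787 and 802 at P16, a log2 fold change of 1.24 (adjusted p = 0.0124, limma). Lpin1 had 272, 238 and 240 at P14 and 389, 324 and 397 at P16, a log2 fold change of 0.56 (adjusted p = 0.0182 by limma). For each of the 4 genes the days did not overlap in control mice, but the share of all genes whose days were apart was not counted. In dMF1/2 mice Lpin1 had 292, 242 and 206 at P14 and 274, 272 and 267 at P16. The log2 fold changes in dMF1/2 mice were 0.05 for Scd1, 0.01 for Scd2, 0.17 for Elovl6 and 0.15 for Lpin1, and none passed. Without the P14 replicate 1 pair they were 0.27, 0.11, 0.12 and 0.27 in the same order, and again none passed. Insig2 did not pass between days, with a log2 fold change of -0.37 in control (adjusted p = 0.124, limma) and 0.03 in dMF1/2 mice. Without that pair its changes were -0.31 and 0.22, and neither passed.

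Pmvk and Mvd, consecutive enzymes of the mevalonate arm, fell in both genotypes. Pmvk, phosphomevalonate kinase, had 115, 90.3 and 88.9 normalized reads at P14 and 62.8, 48.9 and 41.1 at P16 in control mice, a log2 fold change of -0.94 (adjusted p = 0.0308, limma). In dMF1/2 mice Pmvk had 108, 102 and 111 at P14 and 46.5, 31.2 and 66.5 at P16, a log2 fold change of -1.21 (adjusted p = 0.0193 by limma). Mvd, the next enzyme of the pathway, had 157, 124 and 110 at P14 and 80.9, 89.7 and 101 at P16 in control mice, a log2 fold change of -0.51 (adjusted p = 0.0492, limma). In dMF1/2 mice Mvd had 122, 112 and 136 at P14 and 61.3, 65.1 and 63.4 at P16, a log2 fold change of -0.95 (adjusted p = 0.00554 by limma). The days did not overlap for either gene in either genotype, and here too the share of all genes was not counted. Tm7sf2 had 143, 63.1 and 59.3 normalized reads at P14 and 25.8, 40.8 and 29.0 at P16 in control mice, a log2 fold change of -1.35 (adjusted p = 0.0350, limma), and in dMF1/2 mice it had 101, 72.2 and 72.9 at P14 and 35.9, 63.3 and 85.2 at P16, a change of -0.48 that did not pass.

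**Figure D4:**
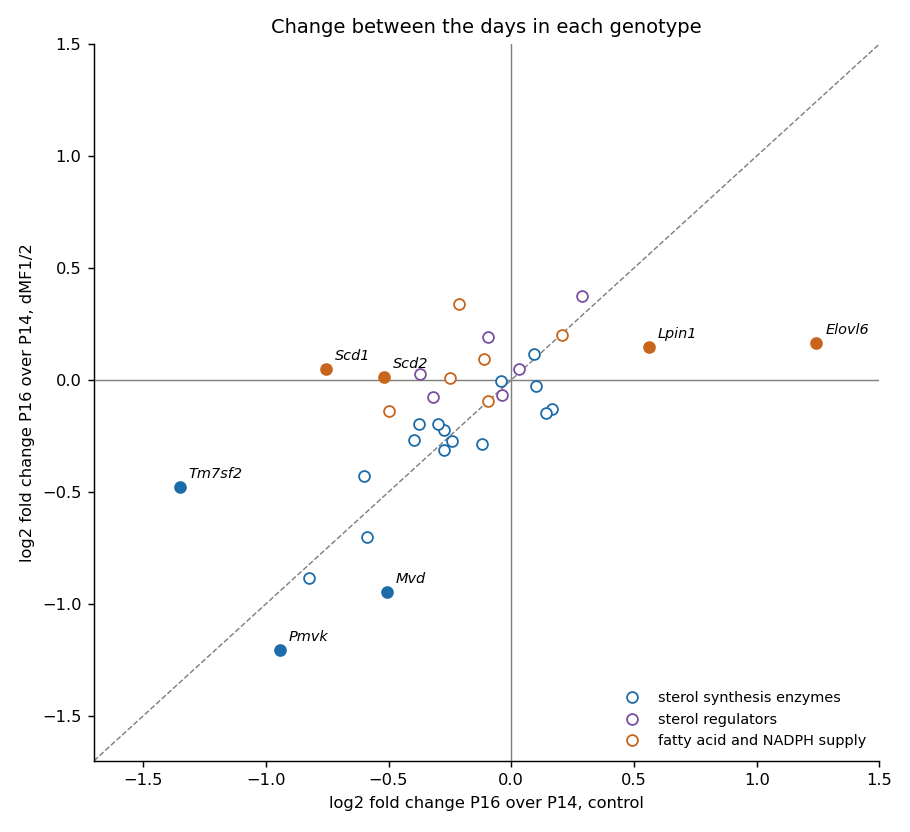
Log2 fold change of P16 over P14 in control mice (x axis) and in dMF1/2 mice (y axis) for the 34 genes, with filled, named points for genes called in either genotype and a dashed line where both changes are equal. Pmvk and Mvd lie low on both axes, while Scd1, Scd2, Elovl6 and Lpin1 lie near 0 on the dMF1/2 axis.

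Of the 18 sterol enzymes, 14 had log2 fold changes below 0 in control and 17 in dMF1/2 mice, with medians of -0.29 and -0.27, where 51.8% and 51.3% of all genes were above 0. Of the 18, 3 passed in control mice (16.7%, near the 14.5% of all genes) and 2 in dMF1/2 mice (11.1%, against 5.80%). Without the P14 replicate 1 pair, 3 members were called in control mice, Scd1, Scd2 and Lpin1, where 7.09% of all genes were called, and the median was -0.16, with 12 of 34 above 0. Their log2 fold changes were then -0.62, -0.48 and 0.62. The other 4 lost their calls, with log2 fold changes of 1.04 for Elovl6, -0.82 for Pmvk, -0.37 for Mvd and -0.94 for Tm7sf2 (adjusted p = 0.0502, 0.111, 0.185 and 0.107, limma). In dMF1/2 mice Pmvk and Mvd were still called without that pair, where 6.10% of all genes were. Their log2 fold changes were -1.20 and -0.95, and the median of the members was 0.04. Of the 18 sterol enzymes 13 were then below 0 in each genotype, with medians of -0.18 in control and -0.20 in dMF1/2 mice. With 1 library left out, 2 to 9 members were called in control mice, where 5.17% to 14.5% of all genes were. In dMF1/2 mice it was 1 to 2, where 1.92% to 5.05% of all genes were. Without P14 control replicate 1 the count was 2 (5.83% of all genes). Without P16 control replicate 1 it was 3, Elovl6, Pmvk and Sqle (5.17%). It was 3 without P14 control replicate 2 (7.78%) and 2 without P16 control replicate 3 (7.25%).

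Whether the change between days differed between genotypes was tested as an interaction, and no member passed by limma, where 0 of 13415 genes passed (0%). At an unadjusted p under 0.05 there were 5 members and 648 genes, and DESeq2 called 0 members and 7 genes. The 5 members belong to the fatty acid group. Their log2 interaction terms, the change in dMF1/2 minus that in control mice, were -1.08 for Elovl6, 0.81 for Scd1, 0.53 for Scd2, 0.55 for Acaca and -0.41 for Lpin1, with limma's adjusted p close to 1 for each. Without the P14 replicate 1 pair the terms were -0.92, 0.88, 0.59, 0.58 and -0.35 in the same order, and again no member passed. A difference between the days in the effect of genotype is therefore not shown for any member.

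In each group, most sterol enzymes had their highest value in the same library. In P16 control replicate 1, 14 of the 18 enzymes had their highest value of the group, where 33.5% of all genes had theirs. In the P14 replicate 1 libraries it was 13 of 18 in control and 14 of 18 in dMF1/2 mice (37.9% and 41.3% of all genes). That P14 pair had more DP, sebocyte and keratinocyte marker reads than the other P14 libraries. P16 control replicate 1 had the fewest DP and sebocyte marker reads of its group (1536 and 77.6 CPM), with 15.8 CPM over the keratinocyte list. In P16 dMF1/2 replicate 3, 16 of 18 enzymes were highest, where 35.7% of all genes were. That library had the most DP (6266 CPM) and the fewest keratinocyte marker reads (27.0 CPM) of its group. The part of the marked cells in this was not tested. The median ratio of the highest to the lowest library over the enzymes was 1.43 in P14 control, 1.25 in P14 dMF1/2, 1.55 in P16 control and 1.34 in P16 dMF1/2 libraries, beside 1.26, 1.26, 1.23 and 1.23 for all genes. In P14 dMF1/2 libraries the enzymes thus spread no more than other genes did. As a mean over the 18 enzymes, the log2 deviation from the 12-library mean ran from -0.36 to 0.06 in P16 control and from -0.31 to 0.12 in P16 dMF1/2 libraries. The genotypes overlapped on each day. The mean over the 10 fatty acid genes ran from -0.034 to -0.0012 in P16 control and from -0.06 to 0.17 in P16 dMF1/2 libraries. The narrow range in P16 control holds members at opposite ends, since replicate 1 had the most Elovl6 and the fewest Scd1, Scd2 and Acaca reads. The median over the 10 genes was -0.23, -0.10 and -0.09 in P16 control and 0.03, -0.03 and 0.22 in P16 dMF1/2 libraries, so that the genotypes overlapped by their means and not by their medians.

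**Figure D5:**
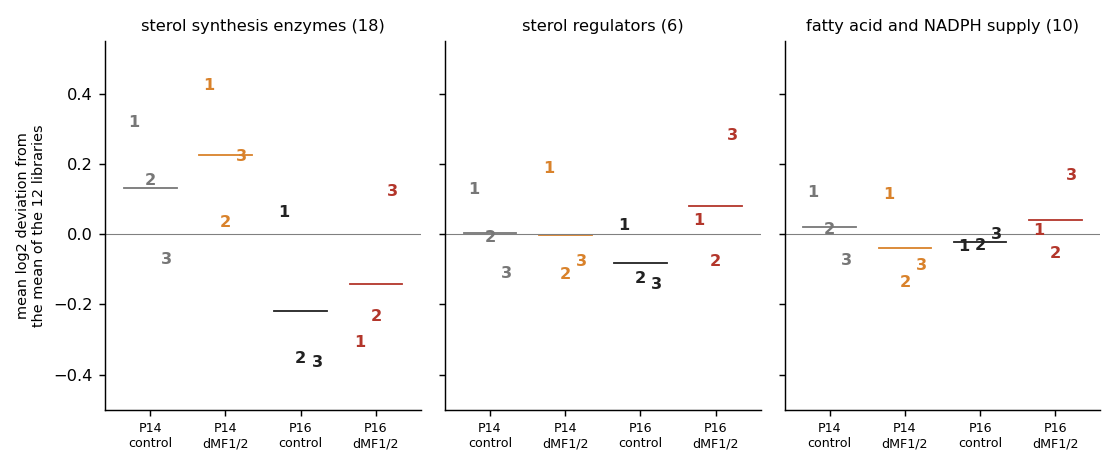
Mean log2 deviation of the sterol enzymes, sterol regulators and fatty acid genes from the mean of the 12 libraries, with each digit a library (its replicate number) and each line a group mean. Among the sterol enzymes, replicate 1 is highest in P14 control, P14 dMF1/2 and P16 control, and replicate 3 in P16 dMF1/2 libraries.

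Of 61 further genes of sterol and fatty acid handling, 56 were tested. At P14 none passed (2 at an unadjusted p under 0.05). At P16, 3 were lower in dMF1/2 mice and none higher, 5.36% of the 56 and near the 4.32% of all genes that passed in either direction (2.14% lower). Nr1h3, which encodes the oxysterol receptor LXRα, had 241, 260 and 321 normalized reads in control and 118, 98.9 and 96.3 in dMF1/2 libraries, a log2 fold change of -1.38 (adjusted p = 0.00544, limma). At P14 the control libraries had 202, 129 and 273 and the mutants 74.0, 92.8 and 83.3, with the groups apart but no call. Fads3, of the fatty acid desaturase family, had 913, 617 and 879 against 468, 307 and 345 at P16, a log2 fold change of -1.10 (adjusted p = 0.0223 by limma). Acsl4, which activates arachidonate and other long polyunsaturated fatty acids, had 1076, 1081 and 930 against 728, 759 and 764, a log2 fold change of -0.45 (adjusted p = 0.0318, limma). In all 3 the P16 groups did not overlap, and with 1 library left out Nr1h3 kept its call each time, while Fads3 lost its call without control replicate 1 or 3 or dMF1/2 replicate 2 or 3 (adjusted p up to 0.0968, limma) and Acsl4 kept its call only without control replicate 3 (otherwise up to 0.105). Between the days, 3 of the 56 rose and 8 fell in control mice (5.36% and 14.3%, against 6.26% and 8.28% of all genes). In dMF1/2 mice only Tecr was called, and it fell (1.79%, against 3.97% of all genes that fell). The 3 that rose were Abca1 and Abcg1, sterol exporters, and Mylip, a ubiquitin ligase that degrades lipoprotein receptors. Those that fell were 0610007P14Rik, Acat1, Dgat2, Elovl1, Fads2, Pgd, Slc25a1 and Tecr. Without the P14 replicate 1 pair, 4 rose in control mice, the same 3 and Scarb1 (7.14%, where 377 of 13416 genes rose). In that fit 3 fell, Fads2, Pgd and Tecr (5.36%, where 574 of 13416 genes fell). In dMF1/2 mice Mylip rose and Tecr fell (1.79% each, where 325 genes rose and 494 fell).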

How the data were processed

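RNA was sequenced from YFP-positive cells of whole skin, sorted by FACS in 2 rounds, after ribosomal depletion and directional library preparation. The authors trimmed 61-base single reads with Trimmomatic, mapped them with Tophat 2 to mm10, counted them per Ensembl gene (GRCm38.p4) with HTSeq-count, whose strand setting was not given in the sources used here, and normalized the counts with DESeq2. The deposited signal of each day is reads divided by size factors over the 6 libraries of that day. All values (100%) were whole multiples of 1 read within a relative tolerance of 1e-06, and the reads were recovered. The deposited log2 fold changes, score (a Wald statistic) and p-values are the authors' own comparisons and were not used.

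Genotypes were compared within a day by limma 3.58.1 (R 4.3.3, mean-variance trend) on log2(normalized reads + 1), keeping genes whose mean reached 10, with Benjamini-Hochberg adjustment over all genes and a threshold of 0.05. Fold changes are on that scale, which understates those of low genes. Days and the interaction were fitted in 1 model of 12 libraries after rescaling the reads of 14986 shared genes by median of ratios, since the tables were normalized separately. Alternatives were DESeq2 1.42.0 and edgeR 4.0.16 on the recovered reads, TMM scaling, other pseudocounts and filters, other sets of libraries, and a replicate block. Same-numbered libraries of a day deviated together (correlations across genes of 0.586, 0.389 and 0.304 at P14 and 0.256, 0.293 and 0.311 at P16). For the block, the numbers were taken to pair control with dMF1/2 libraries. Differently numbered libraries were not correlated, so these values do not show that this pairing is better than another. Omitting the P14 replicate 1 pair was chosen after seeing the data. The functions were tested on simulated data. Exon lengths and shared windows came from the GENCODE vM21 annotation (GRCm38). The members and lists were chosen with earlier results of these data known. Values in every library are given for members called in any of the 5 comparisons and for the 5 with the largest change in each genotype comparison; of the further pathway genes, values are given for those called between genotypes, and further genes (Sqle, Plin1, Acaca, Fasn) were chosen after their values were seen. The number of libraries, 3 a group, limits the precision, and counting error adds to it for members with few reads, such as Fdps, Tm7sf2 and Pmvk.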

Additional observations from a re-analysis of the deposited data

How the results depend on the processing

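At P14 the number of members called was 0 under every alternative run, replicate block included. Below, the share of all genes called under the same setting stands in parentheses. At P16 the number of members was 4 as reported (4.32%), 7 with the replicate block (10.4%) and 7 by DESeq2 (8.33%). It was 6 by DESeq2 with the block (8.95%), 4 by edgeR (4.48%) and 2 with all 12 libraries in the fit (4.44%). With 1 library left out it was 0 to 5 (1.11% to 5.08%). In control mice between days it was 7 as reported (14.5%), 3 with the 6 compared libraries only (6.01%) and 3 without the P14 replicate 1 pair (7.09%). With 1 library left out it was 2 to 9 (5.17% to 14.5%). In dMF1/2 mice it was 2 as reported (5.80%), 4 by DESeq2 (9.95%) and 1 with the 6 compared libraries only (2.41%). It was 3 with the replicate block (7.04%) or by edgeR (5.72%), and 1 to 2 with 1 library left out (1.92% to 5.05%). The block across days, where numbers were not shown to pair mice, gave 7 calls in control mice (16.7%), with Nsdhl in place of Mvd. The interaction called 0 members under each alternative, the replicate block within each day included. Medians of the members moved by less than the spread between libraries under each alternative. With 1 library left out they ran from -0.03 to 0.10 at P14, 0.01 to 0.18 at P16, -0.36 to -0.16 in control mice, -0.19 to 0.04 in dMF1/2 mice and -0.04 to 0.15 for the interaction. None of the 13 differences that were called changed direction under an alternative, while several differences that were not called changed sign. Apart from single libraries left out, called members lost their call in 13 of 130 combinations of result and alternative, and in 38 of 78 when 1 library was left out. The cause of these losses was not tested.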
